A study of Rattus norvegicus with 18 samples.

Results

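The genes described here are mitotic kinases, cyclins, spindle, kinetochore and checkpoint genes, chosen by symbol from a list of 44. Of these, 40 were among the 13188 genes of the deposited expression table, while Cenpe, Spc24, Kif4a and Anln were not analysed here. The cells were HO15.19 Rat1 fibroblasts, a rat line that lacks functional endogenous myc in every group (myc-/-). Human MYC was put back by stable viral infection from a retroviral promoter (myc-/- + MYC). The 18 libraries of poly-A RNA made 6 groups of 3: myc-/- and myc-/- + MYC cells, each either untransfected or transfected with siCtrl, a control siRNA, and cells with MYC transfected with siAHR-2 or siAHR-5, which target the transcription factor AHR (aryl hydrocarbon receptor). Where siRNA was used, it was at 40 nM for 48 h. Nothing in the labels says that the 3 libraries of a group were separate cultures, so p-values measure the spread between these libraries, which may be technical.

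The values were log2 expression normalized by the authors, one per gene and library. They were on different scales in a 6-library set (siCtrl-treated myc-/- cells and untransfected cells with MYC) and a 12-library set (untransfected myc-/- cells and cells with MYC given siCtrl, siAHR-2 or siAHR-5). Because of these scales, groups were compared within a set only. Principal component 1 over all libraries held 74.7% of the variance. In the 6-library set, MYC was tested as untransfected cells with MYC against siCtrl-treated cells without it. For the 12-library set the test was of siCtrl-treated cells with MYC against untransfected cells without it. By these labels, MYC and transfection cannot be told apart in either. The labels of the myc-/- groups may be exchanged, since the group labelled siCtrl, whose columns are named control, shares its scale with untransfected cells, and the group labelled untransfected shares its scale with siRNA-treated cells. If so, both tests would be matched for transfection. The labels were followed throughout, and which holds was not tested. Each comparison of 3 libraries with 3 was fitted with limma over all genes, and p-values were adjusted by the Benjamini-Hochberg method over all genes. Below, a gene rose or fell when its adjusted p was below 0.05 (an FDR of 5%), and it passed both cutoffs when its difference was also at least 1.5-fold (log2FC, the difference in log2 value) with an adjusted p of at most 0.01. Read depth is unknown because the values hold no counts. In bulk RNA, fewer dividing cells and less mitotic RNA per cell cannot be told apart. Levels are not per length, so they are compared between groups and not between genes.

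Cells enter mitosis when cyclin-dependent kinase 1, held inactive by inhibitory phosphorylation, is switched on by CDC25 phosphatases in complex with cyclins A and B. The spindle checkpoint then delays anaphase until kinetochores are attached, after which the anaphase-promoting complex with CDC20 marks securin and cyclin B for destruction. Most of these genes are transcribed in a shared wave late in the cell cycle, and the CHR element and the CCAAT box bound by NF-Y are known for their part in it.

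Promoter sequences from RefSeq (rat build GRCr8, 250 bases before to 50 bases after the start of a gene) matched 33 of the 40 genes by symbol; the values themselves were made on rn6. The word TTTGAA, the usual core of the CHR element, occurred on either strand in 23 of the 33 (69.7%), compared with 18.3% of all 33469 promoters and 12.4% of the 9842 genes of the table with a promoter. Its variant TTTAAA was in 10 of 33 (30.3%, against 13.6% of all promoters and 9.43% of those of table genes), and CCAAT was in 25 of 33 (75.8%, against 37.5% and 38.4%). The canonical E-box CACGTG, the word MYC and MAX are known to bind, was in 2 of 33 (6.06%, against 6.42% and 9.06%), those of Espl1 and Ttk. GCGTG, the core of the element bound by AHR, was in 12 of 33 (36.4%), which was above the 29.7% of all promoters and below the 47.7% of table genes. None of these words contains another, and a match describes letters in a window rather than a binding site.

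The 200 bases before the start are shown for 4 genes: Plk1, which fell past both cutoffs with MYC in both sets, Ect2, which rose past them in both, and Espl1 and Top2a, whose MYC effects differed between the sets. Capitals mark the 5 words above on either strand, so that a word on the opposite strand appears as its reverse complement.
Plk1 (chr1:186147458-186147657, plus strand): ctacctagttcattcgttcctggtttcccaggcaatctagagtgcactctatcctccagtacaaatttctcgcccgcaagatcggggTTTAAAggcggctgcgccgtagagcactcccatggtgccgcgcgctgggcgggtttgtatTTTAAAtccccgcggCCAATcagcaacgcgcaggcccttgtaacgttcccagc
Ect2 (chr2:111966627-111966826, minus strand): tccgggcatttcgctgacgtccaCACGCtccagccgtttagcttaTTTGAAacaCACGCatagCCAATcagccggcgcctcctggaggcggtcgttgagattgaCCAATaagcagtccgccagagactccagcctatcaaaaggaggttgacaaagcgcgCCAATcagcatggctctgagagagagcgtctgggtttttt
Espl1 (chr7:135302516-135302715, plus strand): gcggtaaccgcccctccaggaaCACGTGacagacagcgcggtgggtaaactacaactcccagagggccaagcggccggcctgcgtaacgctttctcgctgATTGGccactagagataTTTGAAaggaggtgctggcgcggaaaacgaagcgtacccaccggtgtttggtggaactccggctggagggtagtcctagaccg
Top2a (chr10:84473094-84473293, minus strand): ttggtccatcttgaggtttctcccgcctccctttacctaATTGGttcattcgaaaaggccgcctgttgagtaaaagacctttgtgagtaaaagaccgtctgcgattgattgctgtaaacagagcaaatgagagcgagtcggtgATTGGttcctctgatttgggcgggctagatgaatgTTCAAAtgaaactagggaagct
In Plk1 the words TTTAAA began 113 and 53 bases and CCAAT 38 bases before the start. Ect2 held CCAAT at 137, 96 and 40 bases and TTTGAA at 155 bases before the start, and GCGTG on the opposite strand at 177 and 146 bases. Another TTTGAA of Ect2 began 3 bases before the start and ran past it, so it is not in capitals, and one of Plk1 lay after the start. For Espl1 the E-box lay 178, the CCAAT word 100 and TTTGAA 83 bases upstream. Top2a held CCAAT at 161 and 57 bases and TTTGAA at 22 bases, all on the opposite strand.

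Before the comparisons, the labels and libraries were checked. Ahr fell by 1.29 on the log2 scale under siAHR-2 (limma adjusted p = 2.37e-04) and fell by 1.39 under siAHR-5 (limma adjusted p = 2.16e-04). Rat Myc still gave signal in every library and was lower with MYC, at 8.01 to 8.08 against 9.16 to 9.47 in the 6-library set and 8.16 to 8.27 against 10.82 to 10.94 in the 12-library set, while the human transgene was not analysed here. Replicate 2 of the myc-/- libraries was the farthest of its 3 libraries for 26 of the 40 mitotic genes, and replicate 2 of siAHR-5 for 25. Without the former, 7 mitotic genes rose and 0 fell past both cutoffs with MYC, and without the latter 11 rose and 6 fell at an FDR of 5% with siAHR-5. Fibroblast markers were present as a list, with a summed level (the log2 of the sum of the unlogged values) of 20.82 to 20.84 in myc-/- siCtrl cells and 19.90 to 19.99 in myc-/- + MYC cells of the 6-library set, and of 21.95 to 22.18 in myc-/- cells and 20.23 to 20.25 in myc-/- + MYC siCtrl cells of the 12-library set. Of its 12 genes, 5 fell and 1 rose past both cutoffs in the 6-library set, and 7 fell in the 12-library set. Of all genes, 14.3% fell and 12.5% rose in the former, and 14.7% fell and 10.8% rose in the latter. Col1a2, a collagen gene of fibroblasts, was nonetheless low at 3.64 to 4.13 over the libraries, as were the epithelial gene Epcam (1.22 to 2.42) and the immune gene Ptprc (2.84 to 4.65). Their lists were not low throughout. The immune gene Cd14 was at 9.91 to 11.44, and the summed level over the libraries was 7.76 to 9.11 for the epithelial and 10.28 to 11.82 for the immune list. Of 4 epithelial, 4 endothelial, 4 immune and 1 muscle markers measured, 1, 1, 0 and 0 rose and 0, 0, 2 and 1 fell past both cutoffs in the 6-library set, and 1, 0, 0 and 0 rose and 0, 0, 2 and 1 fell in the 12-library set. The part of these shifts in the mitotic genes was not tested.

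In the 6-library set, most mitotic genes were lower in myc-/- + MYC cells. Of the 40 genes, 28 fell and 7 rose at an FDR of 5% (87.5% of the 40), when 76.2% of all genes changed, 39% lower and 37.3% higher. The median log2FC of the 40 was −0.25, and that of all genes was −0.00382. Past both cutoffs, 7 fell (Incenp, Plk1, Ndc80, Kif11, Kif22, Aurka and Foxm1) and 1 rose (Ect2), which is 20% of the 40, when 26.8% of all genes passed. By direction, 14.3% of all genes fell and 12.5% rose past both cutoffs. The 3 libraries with MYC were all below the 3 without for 28 of the 40 genes and all above for 7, when 40.9% of all genes were all below and 37.9% all above. After quantile normalization the split at an FDR of 5% was 25 lower and 12 higher, 3 genes were lower past both cutoffs, and the median was −0.167.

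In the 12-library set, the same genes were divided. At an FDR of 5%, 19 of the 40 rose and 11 fell with MYC (75% of the 40), when 64.7% of all genes changed, 31.6% higher and 33.1% lower, and the median log2FC of the 40 was 0.10. Past both cutoffs, 6 rose (Ect2, Espl1, Top2a, Nuf2, Racgap1 and Aurkb) and 1 fell (Plk1), which is 17.5% of the 40, when 25.5% of all genes passed, 10.8% higher and 14.7% lower. The libraries with MYC were all above those without for 20 genes and all below for 13, when 33.8% and 36.7% of all genes were. After quantile normalization 24 genes rose and 5 fell, and the median was 0.175. It was 0.144 after median centring.

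**Figure D1:**
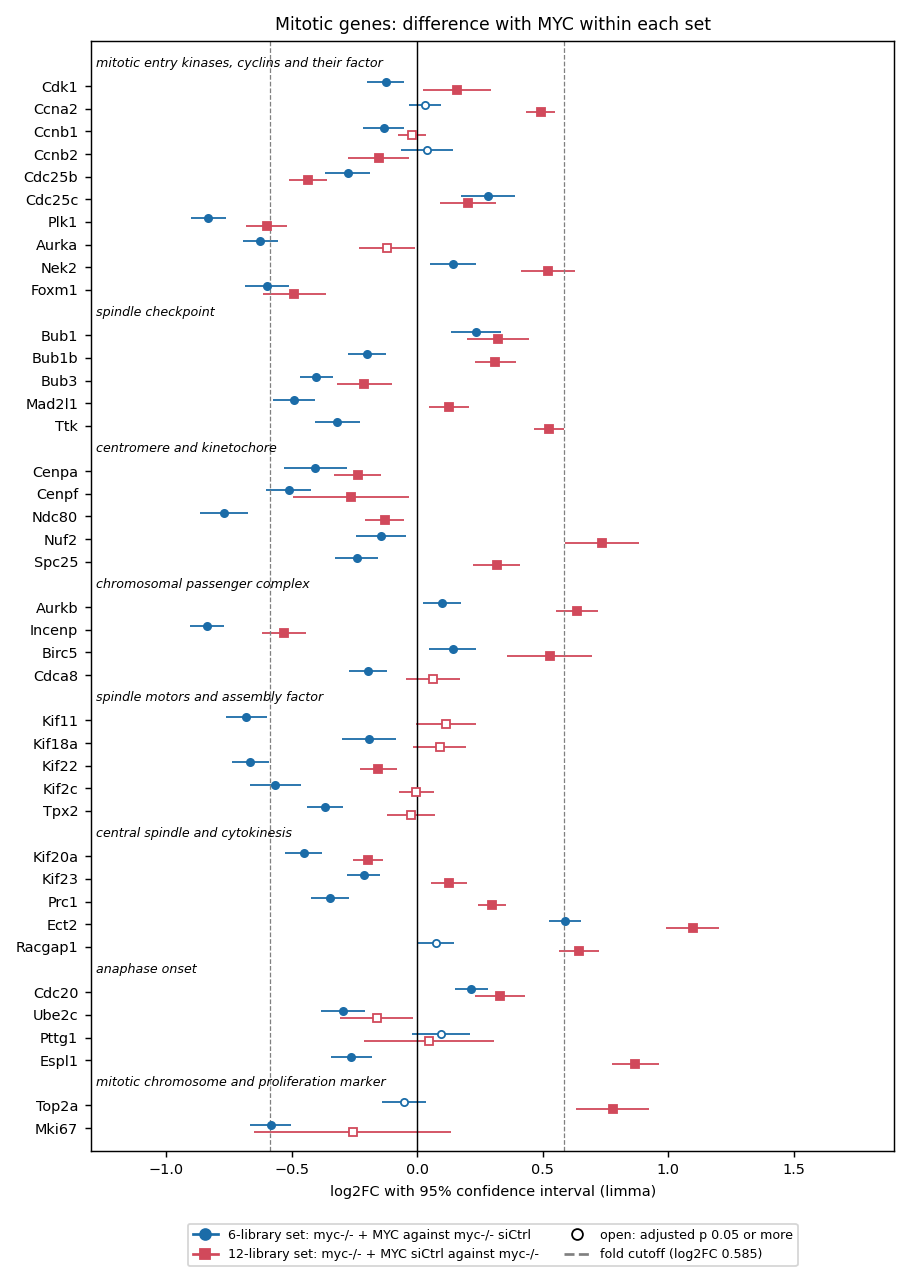
Log2FC of the 40 mitotic genes with MYC in the 6-library set (circles, myc-/- + MYC against myc-/- siCtrl) and the 12-library set (squares, myc-/- + MYC siCtrl against myc-/-), with bars for the 95% confidence interval of limma (3 libraries against 3) and dashed lines at the fold cutoff. Open symbols have an adjusted p of 0.05 or more. Most circles lie to the left of 0, with Ect2 as the only one past the right-hand line, whereas squares lie on both sides.

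The MYC effects of the sets were set against each other gene by gene. Of the 28 genes that fell in the 6-library set, 10 also fell in the 12-library set, 9 rose there and 9 did neither at an FDR of 5%. All 7 that rose in the 6-library set (Cdc25c, Nek2, Bub1, Aurkb, Birc5, Ect2 and Cdc20) rose in the 12-library set too. These pairs at an FDR of 5% were not counted over all genes, so nothing particular to the 40 is read from them. Of all genes, 31.6% rose and 33.1% fell in the 12-library set. Past both cutoffs, 1 of the 40 was higher in both sets (2.5%) and 1 lower (2.5%), when 6.87% and 8.91% of all genes were. In opposite directions went 0 of the 40, compared with 0.341% of all genes. The difference itself (12-library minus 6-library set), fitted over the 12 libraries of these 4 groups (6 of each set), was above 0 at an FDR of 5% for 29 of the 40 genes and below 0 for 2 (Ccnb2 and Cdc25b), when 54.9% of all genes differed, 24.8% above and 30.1% below. Past both cutoffs were 8 genes, all with a larger value in the 12-library set, compared with 16.5% of all genes, 6.79% above and 9.67% below. With each library centred on its median, 16 genes were past both cutoffs. The 2 below 0 became 0 with that centring and with the replicate block, 1 after quantile normalization, and 0 to 2 when 1 library was left out.

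Among the kinases, cyclins and the factor of mitotic entry, Plk1 was the gene that fell past both cutoffs in both sets. Such a fall was seen in 2.5% of the 40 genes, when 8.91% of all genes fell in this way. PLK1 is the polo-like kinase that drives entry into mitosis and spindle maturation. It stood at 14.11, 14.11 and 14.19 in the myc-/- siCtrl libraries and at 13.32, 13.28 and 13.31 in the myc-/- + MYC libraries. Within the 12-library set it stood at 15.12, 15.15 and 15.06 in myc-/- cells and at 14.48, 14.54 and 14.50 in myc-/- + MYC siCtrl cells. The groups did not overlap in either set. The log2FC was −0.83 (SE 0.0317, limma adjusted p = 7.42e-10) in the 6-library set and −0.60 (SE 0.0333, limma adjusted p = 2.07e-05) in the 12-library set. The latter lay near the fold cutoff, and without replicate 2 of the myc-/- libraries it was −0.58, within the cutoff. It was also within the cutoff after quantile normalization (−0.44) and after median centring (−0.56).

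Aurka, the kinase that matures centrosomes, fell past both cutoffs in the 6-library set only. Its values there were 12.63, 12.65 and 12.66 without MYC and 12.02, 12.04 and 12.01 with MYC, and the log2FC was −0.63 (SE 0.0314, limma adjusted p = 7.48e-09). After quantile normalization that fall was −0.565, within the fold cutoff. In the 12-library set it was at 13.31, 13.44 and 13.31 without and 13.20, 13.23 and 13.26 with MYC, with a log2FC of −0.12 (limma adjusted p = 0.0581). The difference between the sets was 0.50 (SE 0.0577, limma adjusted p = 3.32e-06). Foxm1, which encodes a transcription factor of late cell cycle genes, fell in both sets. It went from 12.98, 13.08 and 13.02 to 12.41, 12.37 and 12.49 in the 6-library set (log2FC −0.60, limma adjusted p = 8.80e-08) and from 13.72, 13.56 and 13.71 to 13.14, 13.22 and 13.16 in the 12-library set (log2FC −0.49, limma adjusted p = 2.97e-04), with no overlap in either. In the 6-library set its log2FC was within the fold cutoff after quantile normalization (−0.53), without myc-/- siCtrl replicate 2 and without myc-/- + MYC replicate 2 (−0.57 each). Its difference between the sets was 0.11 (95% confidence interval −0.04 to 0.26, limma adjusted p = 0.193).

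The core of the mitotic switch moved by less than the fold cutoff. Cdk1, the mitotic kinase itself, was at 14.21, 14.15 and 14.14 without and 14.09, 14.01 and 14.01 with MYC in the 6-library set, and at 14.70, 14.86 and 14.69 without and 14.89, 14.88 and 14.97 with MYC in the 12-library set. It fell by 0.13 in the 6-library set (limma adjusted p = 0.00498) and rose by 0.16 in the 12-library set (limma adjusted p = 0.0450), and quantile normalization turned the former to 0.09. Its partner cyclin B1 (Ccnb1) was at 13.54, 13.52 and 13.61 without and 13.48, 13.42 and 13.37 with MYC in the 6-library set and at 14.68, 14.71 and 14.70 without and 14.66, 14.67 and 14.68 with MYC in the 12-library set. Its log2FC was −0.13 (limma adjusted p = 0.00637) and −0.02 (95% confidence interval −0.08 to 0.04, limma adjusted p = 0.465), and after quantile normalization these became 0.01 and 0.11. Ccnb2 had a log2FC of 0.04 (limma adjusted p = 0.480) in the 6-library set and fell by 0.15 in the 12-library set (limma adjusted p = 0.0351). Cyclin A2 (Ccna2), which acts from S phase into early mitosis, had a log2FC of 0.03 in the 6-library set (95% confidence interval −0.03 to 0.09) and rose by 0.49 in the 12-library set (limma adjusted p = 1.16e-05).

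The phosphatases that activate CDK1 went in opposite directions. Cdc25b fell in both sets (log2FC −0.28 and −0.44, limma adjusted p = 7.15e-05 and 5.76e-05) and Cdc25c rose in both (log2FC 0.28 and 0.20, limma adjusted p = 2.46e-04 and 0.00864). In the 6-library set, Cdc25c went from 10.82, 10.86 and 10.78 to 11.13, 11.15 and 11.02. The centrosome kinase gene Nek2 rose by 0.14 and 0.52 (limma adjusted p = 0.00835 and 1.18e-04), all below the fold cutoff. Of the 10 genes of this group, 6 fell and 2 rose in the 6-library set, and 4 fell and 4 rose in the 12-library set. That is 80% in each, when 76.2% and 64.7% of all genes changed. By direction, 39% of all genes fell and 37.3% rose in the 6-library set, and 33.1% fell and 31.6% rose in the 12-library set.

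The checkpoint genes were split between the sets. Of the 5, 4 fell and 1 rose (Bub1) in the 6-library set, while 4 rose and 1 fell (Bub3) in the 12-library set, none past the fold cutoff, when 76.2% and 64.7% of all genes changed. Of all genes, 39% fell and 37.3% rose in the 6-library set, and 33.1% fell and 31.6% rose in the 12-library set. Mad2l1, whose product restrains CDC20 at unattached kinetochores, was at 12.49, 12.41 and 12.39 without and 11.92, 11.92 and 11.98 with MYC in the 6-library set. Within the 12-library set the values were 13.47, 13.45 and 13.44 without and 13.61, 13.60 and 13.52 with MYC. It fell by 0.49 in the former (limma adjusted p = 3.18e-07) and rose by 0.13 in the latter (limma adjusted p = 0.0146), a difference of 0.62 (SE 0.0560, limma adjusted p = 2.73e-07). Ttk encodes MPS1, the kinase at the top of the checkpoint. Its libraries stood at 12.83, 12.80 and 12.68 without and 12.44, 12.47 and 12.44 with MYC in the 6-library set and at 13.92, 13.89 and 13.88 without and 14.44, 14.41 and 14.41 with MYC in the 12-library set, so that the groups were apart in both sets but in opposite order. The log2FC was −0.32 and 0.52, and their difference was 0.84 (SE 0.0558, limma adjusted p = 8.71e-09).

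Bub1b encodes BUBR1, a part of the complex that inhibits the anaphase-promoting complex. It went from 13.22, 13.19 and 13.25 to 13.06, 12.98 and 13.02 in the 6-library set (log2FC −0.20, limma adjusted p = 2.08e-04) and from 14.10, 14.03 and 14.03 to 14.32, 14.38 and 14.40 in the 12-library set (log2FC 0.31, limma adjusted p = 3.48e-04). Bub1, the kinase that recruits BUBR1 and shugoshin to the centromere, rose in both sets, from 12.89, 12.75 and 12.71 to 13.04, 13.00 and 13.02 in the 6-library set (log2FC 0.24) and by 0.32 in the 12-library set. Its effects differed by 0.09 (95% confidence interval −0.07 to 0.24), which did not pass the test. Bub3, the adaptor of both, fell by 0.40 and 0.21 (limma adjusted p = 2.01e-07 and 0.00642).

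At the kinetochore, all 5 measured genes fell in the 6-library set, where 39% of all genes fell. Ndc80 encodes the microtubule-binding subunit of the complex that also holds NUF2 and SPC25. It was at 11.59, 11.55 and 11.60 in myc-/- siCtrl and at 10.87, 10.77 and 10.78 in myc-/- + MYC libraries (log2FC −0.77, SE 0.0430, limma adjusted p = 1.84e-08). The 12-library set held it at 12.66, 12.69 and 12.61 without and 12.53, 12.51 and 12.52 with MYC (log2FC −0.13, limma adjusted p = 0.0111). Other subunits of this complex went the opposite way in the 12-library set. Nuf2 rose there from 12.69, 12.87 and 12.76 to 13.52, 13.43 and 13.57 (log2FC 0.73, SE 0.0596, limma adjusted p = 1.02e-04), after a fall of 0.14 in the 6-library set (from 12.36, 12.23 and 12.23 to 12.16, 12.15 and 12.08). Spc25 fell by 0.24 in the 6-library set and rose by 0.32 in the 12-library set (limma adjusted p = 1.63e-04 and 5.83e-04). Cenpa, the histone H3 variant that marks the centromere, fell from 10.19, 10.32 and 10.25 to 9.88, 9.77 and 9.90 in the 6-library set (log2FC −0.41) and from 11.00, 11.05 and 10.98 to 10.80, 10.76 and 10.76 in the 12-library set (log2FC −0.24, limma adjusted p = 0.00213). Cenpf, a large kinetochore protein of the outer layer, fell by 0.51 in the 6-library set (limma adjusted p = 4.00e-07). In the 12-library set it was at 15.32, 15.04 and 15.38 without and 15.02, 14.91 and 15.01 with MYC (log2FC −0.26, limma adjusted p = 0.0497), with replicate 2 of the myc-/- libraries below the others, and it was −0.37 (limma adjusted p = 9.61e-04) without that library.

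The chromosomal passenger complex joins the kinase Aurora B to INCENP, survivin (Birc5) and borealin (Cdca8), and its genes did not move as a unit. Incenp, the scaffold, fell most of the 40 genes in the 6-library set. It went from 15.19, 15.24 and 15.18 to 14.39, 14.32 and 14.38 (log2FC −0.84, SE 0.0304, limma adjusted p = 5.04e-10) and, in the 12-library set, from 15.86, 15.76 and 15.83 to 15.26, 15.31 and 15.28 (log2FC −0.53, limma adjusted p = 4.33e-05). Aurkb rose instead. Its values were 13.15, 13.22 and 13.22 without and 13.35, 13.27 and 13.27 with MYC in the 6-library set (log2FC 0.10, limma adjusted p = 0.0217). Within the 12-library set they were 13.97, 14.03 and 13.96 without and 14.61, 14.67 and 14.59 with MYC (log2FC 0.64, SE 0.0335, limma adjusted p = 1.67e-05), past both cutoffs. Birc5 was at 12.15, 12.14 and 12.15 without and 12.37, 12.21 and 12.28 with MYC in the 6-library set, and at 12.89, 13.09 and 12.89 without and 13.40, 13.52 and 13.53 with MYC in the 12-library set. It rose by 0.14 and 0.53 (limma adjusted p = 0.0102 and 8.11e-04), and the latter was 0.59, past both cutoffs, without replicate 2 of the myc-/- libraries. Cdca8 fell by 0.20 in the 6-library set (limma adjusted p = 2.99e-04) and stood at a log2FC of 0.06 in the 12-library set (95% confidence interval −0.04 to 0.17).

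The spindle motors and the assembly factor TPX2 all fell in the 6-library set, and 1 of the 5 (Kif22) fell in the 12-library set, when 39% and 33.1% of all genes fell. Kif11 encodes Eg5, the motor that pushes spindle poles apart. It dropped from 13.82, 13.78 and 13.73 to 13.16, 13.06 and 13.07 in the 6-library set (log2FC −0.68, SE 0.0362, limma adjusted p = 1.24e-08) and was at 14.89, 14.74 and 14.88 without and 14.98, 14.92 and 14.94 with MYC in the 12-library set (log2FC 0.11, limma adjusted p = 0.0860). Those effects differed by 0.79 (SE 0.0640, limma adjusted p = 7.44e-08). Kif22, a chromosome-arm motor, fell from 14.30, 14.26 and 14.26 to 13.64, 13.55 and 13.64 in the 6-library set (log2FC −0.66, limma adjusted p = 6.98e-09) and by 0.16 in the 12-library set (limma adjusted p = 0.00471), where quantile normalization left 0.01. Quantile normalization of the 6-library set brought both within the fold cutoff, Kif11 to −0.54 and Kif22 to −0.47. Tpx2, the activator of Aurora A on the spindle, was at 14.04, 13.98 and 13.99 without and 13.69, 13.62 and 13.60 with MYC in the 6-library set and at 15.08, 14.98 and 15.03 without and 15.01, 14.96 and 15.05 with MYC in the 12-library set. Its log2FC was −0.37 (limma adjusted p = 1.10e-06) and −0.03 (95% confidence interval −0.12 to 0.07), the latter 0.16 after quantile normalization. Kif2c, a microtubule depolymerase, fell by 0.57 in the 6-library set, just within the fold cutoff. It was past the cutoff without myc-/- + MYC replicate 1 and after median centring. Kif18a fell by 0.19 in that set. In the 12-library set Kif18a was at a log2FC of 0.09 and Kif2c within 0.01 of 0, and neither passed the test there.

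**Figure D2:**
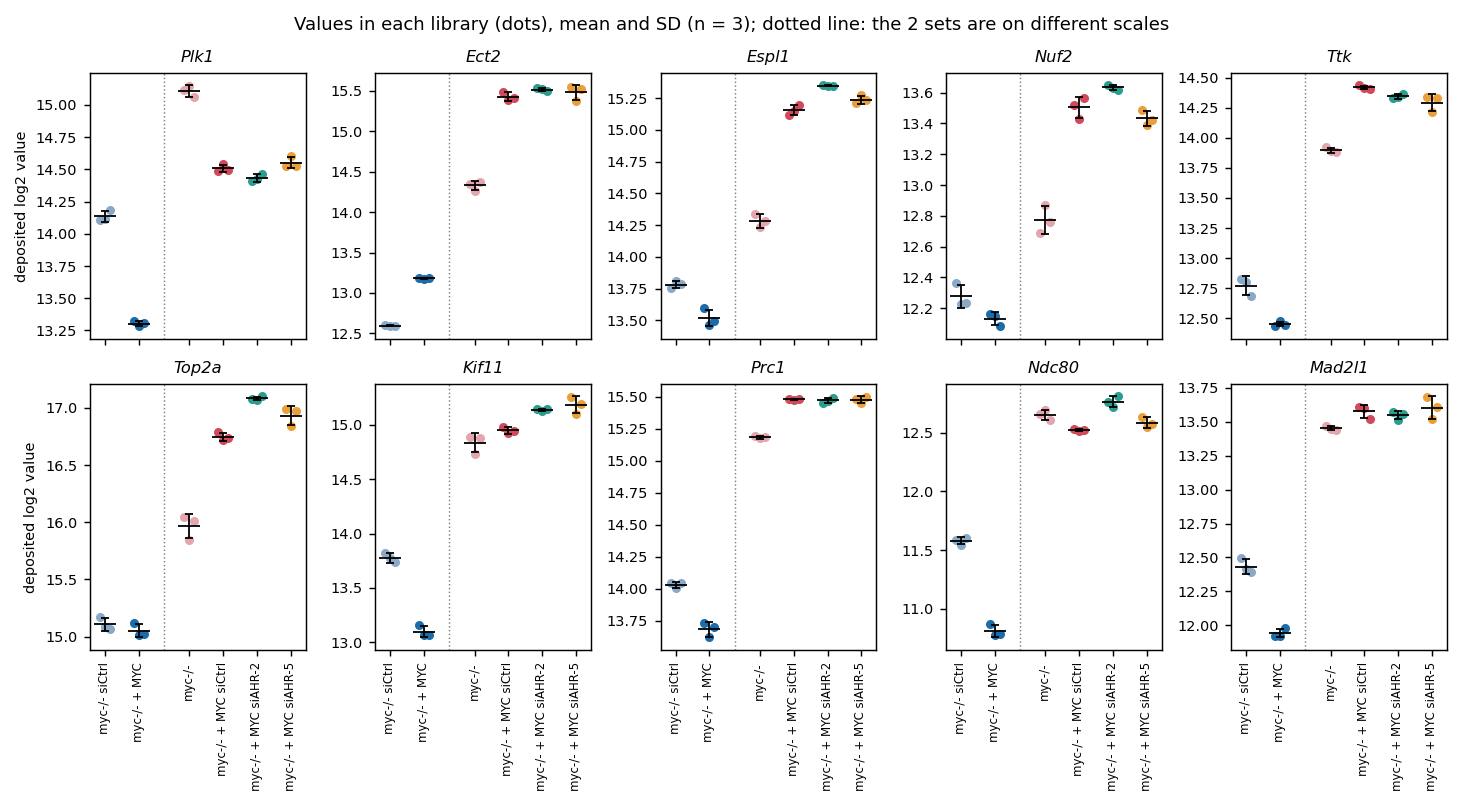
Deposited log2 values of Plk1, Ect2 and the 8 genes whose MYC effects differed between the sets past both cutoffs. Dots are libraries, black bars the mean and SD of 3 libraries, and the dotted line separates the 6-library set (left) from the 12-library set (right), whose values are on different scales. Plk1 is lower and Ect2 higher with MYC in both sets, while Espl1, Nuf2, Ttk, Prc1 and Mad2l1 are lower with MYC on the left and higher on the right.

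Genes of the central spindle and cytokinesis included the only one of the 40 genes that rose past both cutoffs in both sets. That is 2.5% of the 40, when 6.87% of all genes rose in this way. ECT2 is the exchange factor that activates RhoA at the cleavage site. Ect2 was at 12.60, 12.59 and 12.60 in myc-/- siCtrl and at 13.18, 13.18 and 13.19 in myc-/- + MYC libraries. In the 12-library set it was at 14.35, 14.27 and 14.38 without and 15.49, 15.39 and 15.41 with MYC. The gap between groups was far wider than the spread within them, and the log2FC was 0.59 (SE 0.0286, limma adjusted p = 5.79e-09) and 1.10 (SE 0.0426, limma adjusted p = 5.14e-06). The value of the 6-library set sat at the fold cutoff and was 0.58 without replicate 2 of myc-/- siCtrl or without replicate 3 of myc-/- + MYC, and 0.545 after median centring, all within it. Racgap1, the GTPase-activating partner of KIF23 that recruits ECT2, had a log2FC of 0.07 in the 6-library set (limma adjusted p = 0.0691) and rose by 0.64 in the 12-library set (limma adjusted p = 1.39e-05), where it went from 14.74, 14.77 and 14.73 to 15.41, 15.42 and 15.34.

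Prc1, which bundles the microtubules of the midzone, fell from 14.04, 14.00 and 14.04 to 13.73, 13.62 and 13.70 in the 6-library set (log2FC −0.35) and rose from 15.20, 15.17 and 15.18 to 15.49, 15.48 and 15.48 in the 12-library set (log2FC 0.30), a difference of 0.65 (SE 0.0483, limma adjusted p = 3.32e-08). Kif23, the motor of the central spindle, moved likewise by smaller amounts (−0.21 and 0.13, limma adjusted p = 4.13e-05 and 0.00893). Kif20a, the motor that carries PLK1 and Aurora B to the midzone, fell in both, from 14.08, 14.02 and 14.07 to 13.66, 13.58 and 13.58 (log2FC −0.45) and from 15.27, 15.26 and 15.27 to 15.05, 15.09 and 15.07 (log2FC −0.20, limma adjusted p = 6.46e-04).

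Of the genes of anaphase onset, Espl1 had the largest difference between the sets among all 40. It encodes separase, the protease that cuts cohesin. The libraries of the 6-library set were at 13.75, 13.81 and 13.79 without and 13.59, 13.47 and 13.49 with MYC (log2FC −0.26, limma adjusted p = 4.92e-05), and those of the 12-library set at 14.34, 14.23 and 14.28 without and 15.12, 15.15 and 15.20 with MYC (log2FC 0.87, SE 0.0385, limma adjusted p = 8.53e-06). The difference was 1.13 (SE 0.0590, limma adjusted p = 5.86e-10). Cdc20, the activator of the anaphase-promoting complex, rose in both sets, from 13.88, 13.86 and 13.91 to 14.13, 14.07 and 14.10 (log2FC 0.22, limma adjusted p = 4.48e-05) and from 14.62, 14.76 and 14.66 to 14.99, 15.03 and 15.01 (log2FC 0.33, limma adjusted p = 6.08e-04). Ube2c, the ubiquitin-conjugating enzyme of that complex, fell by 0.30 in the 6-library set (limma adjusted p = 4.10e-05) and stood at a log2FC of −0.16 in the 12-library set (limma adjusted p = 0.0524). Pttg1, which encodes securin, passed the test in neither set, with a log2FC of 0.09 (95% confidence interval −0.02 to 0.21) and 0.05 (−0.21 to 0.31).

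Top2a and Mki67, which encode the topoisomerase that untangles mitotic chromosomes and the chromosome coat protein Ki-67, are widely read as proliferation markers. Top2a was at 15.18, 15.08 and 15.07 without and 15.12, 15.01 and 15.03 with MYC in the 6-library set, where the groups overlapped (log2FC −0.05, 95% confidence interval −0.14 to 0.03). After quantile normalization this was 0.17 (limma adjusted p = 0.00206), the opposite sign. Within the 12-library set Top2a rose from 16.05, 15.85 and 16.01 to 16.79, 16.72 and 16.73 (log2FC 0.78, SE 0.0590, limma adjusted p = 7.60e-05). Mki67 fell from 15.34, 15.32 and 15.21 to 14.72, 14.72 and 14.67 in the 6-library set (log2FC −0.58, limma adjusted p = 5.44e-08), just within the fold cutoff. That fall was past the cutoff without myc-/- + MYC replicate 1 or 2, without myc-/- siCtrl replicate 3 and after median centring. In the 12-library set it was at 17.12, 16.56 and 17.11 without and 16.73, 16.68 and 16.61 with MYC, and replicate 2 of the myc-/- libraries was below all the others. The log2FC was −0.26 (95% confidence interval −0.65 to 0.13, limma adjusted p = 0.204), and without that library it was −0.44 (limma adjusted p = 4.52e-04).

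Further mitotic genes were read from 6 wider lists, 135 genes of which 106 were in the table. In the 6-library set, 50 of the 106 fell and 30 rose at an FDR of 5%, and in the 12-library set, 18 fell and 66 rose. That is 75.5% and 79.2% of the 106, when 76.2% and 64.7% of all genes changed. Of all genes, 39% fell and 37.3% rose in the 6-library set, and 33.1% fell and 31.6% rose in the 12-library set. The median log2FC was −0.03 and 0.23. Past both cutoffs, 12 fell and 4 rose in the 6-library set and 2 fell and 18 rose in the 12-library set, which is 15.1% and 18.9%, when 26.8% and 25.5% of all genes passed. Those shares of all genes were 14.3% lower and 12.5% higher in the 6-library set, and 14.7% lower and 10.8% higher in the 12-library set. In the 12-library set the 2 falls became 0 after quantile normalization (25 rose), after median centring (22 rose) and without myc-/- replicate 2. They became 1 without myc-/- + MYC siCtrl replicate 1. The kinetochore list had 15 of 25 lower and 5 higher in the 6-library set, and 1 lower and 17 higher in the 12-library set (80% and 72% of the list). Cohesin and condensin had 7 of 14 lower and 3 higher, against 0 lower and 10 higher (71.4% of the list in each set; limma, where 10 of the 14 had an unadjusted p under 0.05 in the 12-library set).

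**Figure D3:**
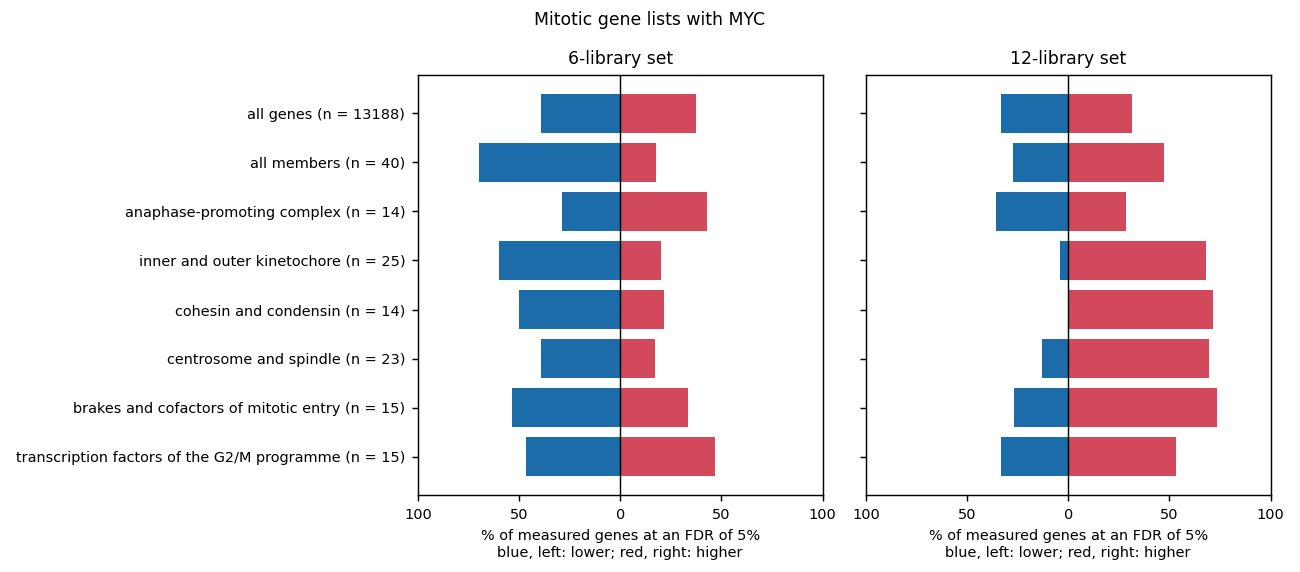
Percent of the measured genes of each list that fell (left of 0, blue) or rose (right of 0, red) with MYC at an FDR of 5% in the 6-library set and the 12-library set, with all genes and the 40 mitotic genes (all members) on top. The 40 genes and every wider list but the anaphase-promoting complex have a longer red bar in the 12-library set than in the 6-library set.

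The genes named here had the largest changes past both cutoffs in these lists. Gtse1, a G2 and S phase protein that restrains p53, fell by 1.23 in the 6-library set (limma adjusted p = 1.54e-11) and rose by 1.07 in the 12-library set (limma adjusted p = 5.72e-07), a difference of 2.295 (SE 0.0436). Cdkn1a, which encodes the CDK inhibitor p21, fell by 2.33 in the 6-library set (limma adjusted p = 1.79e-11) and by 0.59 in the 12-library set (limma adjusted p = 2.48e-04). The latter was within the fold cutoff after quantile normalization (−0.57), after median centring (−0.55) and without myc-/- + MYC siCtrl replicate 1 (−0.54) or myc-/- replicate 2 (−0.55). Ska2, a subunit of the outer kinetochore, rose by 1.34 and 0.34 (limma adjusted p = 7.23e-10 and 0.00343). Esco1, a cohesin acetyltransferase, rose by 0.89 and 0.86 (limma adjusted p = 3.28e-09 and 1.76e-05). E2f7, an atypical E2F repressor, rose by 0.26 and 1.07 (limma adjusted p = 3.86e-04 and 1.87e-04). Anapc11, the RING subunit of the anaphase-promoting complex, fell by 0.61 in the 12-library set (limma adjusted p = 7.14e-04), which was −0.55 after quantile normalization, −0.57 after median centring and −0.525 without myc-/- replicate 2, each within the fold cutoff. For the 6-library set it stood at −0.11 (limma adjusted p = 0.0417), at 0.02 after quantile normalization, and did not pass at an FDR of 5% with all libraries in one fit (limma adjusted p = 0.0964).

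With knockdown of AHR in myc-/- + MYC cells, none of the 40 mitotic genes passed the fold cutoff. With siAHR-2, 15 of the 40 rose and 4 fell at an FDR of 5%, when 29.3% of all genes changed, 13.7% higher and 15.5% lower. With siAHR-5, 8 rose and 5 fell, when 39.2% changed, 21.1% higher and 18.1% lower. Past both cutoffs 0 of the 40 changed with either siRNA, when 0.47% of all genes did with siAHR-2 (0.159% higher, 0.311% lower) and 2.32% with siAHR-5, 1.47% higher and 0.849% lower (limma; 28 and 20 of the 40 had an unadjusted p under 0.05). With the replicate block, 0 of all 13188 genes passed both cutoffs with siAHR-2. The median log2FC of the 40 was 0.07 with siAHR-2 and 0.04 with siAHR-5. For siAHR-2 it was 0.125 after quantile normalization and 0.0405 after median centring. For siAHR-5 it was 0.0587 and −0.0188, the latter of opposite sign, and 0.0259 without siCtrl replicate 1. These splits moved with the scaling: 23 rose and 2 fell with siAHR-2 after quantile normalization and 11 and 6 after median centring, and with siAHR-5 the numbers were 12 and 2, and 5 and 12. They also moved with single libraries. Leaving out siAHR-2 replicate 1, 2 or 3 gave 10 and 1, 9 and 2, or 10 and 3 with siAHR-2, and the replicate block gave 10 and 1. With siAHR-5, leaving out replicate 1 or 3 of siAHR-5 gave 6 and 2 or 5 and 3, leaving out siCtrl replicate 2 or 3 gave 6 and 3 or 6 and 2, and siCtrl replicate 1 gave 6 and 4. Both siRNAs were compared with the same 3 siCtrl libraries. The summed fibroblast marker level was 20.23 to 20.25 with siCtrl, 19.99 to 20.03 with siAHR-2 and 19.96 to 19.97 with siAHR-5. Its genes did not move together. Vim fell by 0.36 with siAHR-2 and by 0.48 with siAHR-5, whereas Thy1 (0.75), Pdgfrb (0.55) and Col1a1 (0.22) rose with siAHR-5, Thy1 past both cutoffs. At an FDR of 5%, 1 of the 12 rose and 2 fell with siAHR-2, and 3 rose and 2 fell with siAHR-5. The summed immune marker level was 10.28 to 10.49 with siCtrl, 10.29 to 10.46 with siAHR-2 and 10.80 to 10.89 with siAHR-5, where Cd14 rose by 0.54. Of the 4 endothelial markers, 2 rose with siAHR-5, Pecam1 by 0.26 (limma adjusted p = 0.0376) and Cdh5 by 0.15 (limma adjusted p = 0.0143), and 0 passed with siAHR-2 (limma; 0 had an unadjusted p under 0.05). Their summed level was 9.51 to 9.63 with siCtrl, 9.43 to 9.55 with siAHR-2 and 9.52 to 9.58 with siAHR-5. The part of these markers in the mitotic genes was not tested.

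**Figure D4:**
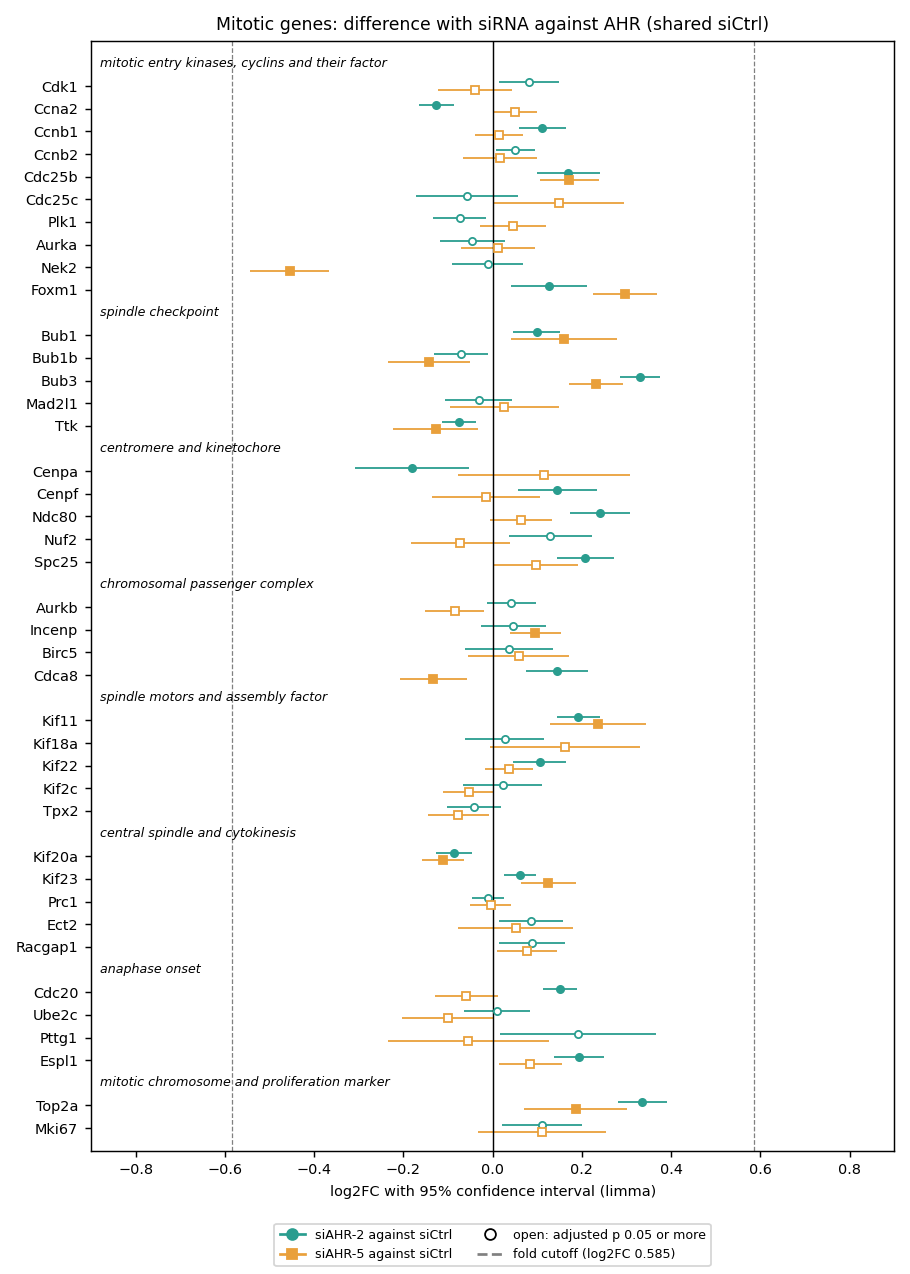
Log2FC of the 40 mitotic genes with siAHR-2 (circles) and siAHR-5 (squares) against the same siCtrl libraries in myc-/- + MYC cells, with 95% confidence intervals of limma (3 libraries against 3). Open symbols have an adjusted p of 0.05 or more. All symbols lie within the dashed fold cutoff, with Nek2 under siAHR-5 farthest to the left.

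Top2a rose most with siAHR-2. It was at 16.79, 16.72 and 16.73 with siCtrl, 17.07, 17.07 and 17.10 with siAHR-2 and 16.99, 16.84 and 16.97 with siAHR-5, so that all libraries with siRNA against AHR were above the siCtrl ones. The log2FC was 0.34 (SE 0.0219, limma adjusted p = 7.16e-04) and 0.19 (SE 0.0461, limma adjusted p = 0.0252). Bub3 stood at 14.15, 14.20 and 14.18 with siCtrl, 14.50, 14.53 and 14.49 with siAHR-2 and 14.42, 14.43 and 14.37 with siAHR-5. It rose by 0.33 and 0.23 (limma adjusted p = 4.99e-04 and 0.00139). Foxm1 was at 13.29, 13.26 and 13.35 with siAHR-2 and 13.45, 13.50 and 13.47 with siAHR-5, against 13.14, 13.22 and 13.16 with siCtrl (log2FC 0.13 and 0.30, limma adjusted p = 0.0424 and 0.00111). The motor gene Kif11 rose to 15.14, 15.13 and 15.15 with siAHR-2 and 15.26, 15.10 and 15.20 with siAHR-5 (log2FC 0.19 and 0.24, limma adjusted p = 0.00206 and 0.00879). Ndc80 reached 12.76, 12.72 and 12.81 with siAHR-2 (log2FC 0.24, limma adjusted p = 0.00284) and was at 12.63, 12.54 and 12.58 with siAHR-5 (log2FC 0.06, limma adjusted p = 0.134). Each of these rises was below the fold cutoff.

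Nek2 showed the largest fall and a difference between the siRNAs. Its libraries stood at 13.21, 13.24 and 13.32 with siCtrl, 13.26, 13.26 and 13.22 with siAHR-2 and 12.76, 12.82 and 12.82 with siAHR-5, the last group below all others. The log2FC was −0.01 with siAHR-2 (95% confidence interval −0.09 to 0.07) and −0.45 with siAHR-5 (SE 0.0352, limma adjusted p = 6.40e-04). Tested directly, siAHR-5 against siAHR-2 gave −0.44 (SE 0.0244, limma adjusted p = 1.86e-04). Cdca8 went from 14.02, 14.10 and 14.11 with siCtrl to 14.23, 14.22 and 14.20 with siAHR-2 and 13.92, 13.96 and 13.94 with siAHR-5, up with the former and down with the latter (log2FC 0.14 and −0.13, direct difference −0.28, limma adjusted p = 2.78e-04). Ccna2 was at 15.23, 15.19 and 15.22 with siCtrl, 15.08, 15.08 and 15.10 with siAHR-2 and 15.28, 15.24 and 15.27 with siAHR-5 (log2FC −0.13, limma adjusted p = 0.00398, and 0.05, limma adjusted p = 0.0963). Cenpa fell with siAHR-2, to 10.54, 10.69 and 10.54 (log2FC −0.18, limma adjusted p = 0.0488), and was at 10.77, 11.05 and 10.84 with siAHR-5 (log2FC 0.12, 95% confidence interval −0.08 to 0.31). Cdc20 rose by 0.15 with siAHR-2 (to 15.15, 15.16 and 15.17) and stood at a log2FC of −0.06 with siAHR-5 (14.93, 15.00 and 14.92). Over the 40 genes, siAHR-5 was higher than siAHR-2 for 5 and lower for 15 at an FDR of 5%, when 39.1% of all genes differed, 22.1% higher and 17% lower, and 0 passed both cutoffs, when 2.18% of all genes did, 1.33% higher and 0.849% lower (limma; 22 of the 40 had an unadjusted p under 0.05). Leaving out 1 library gave 2 to 8 higher and 9 to 14 lower. The counts were 3 and 12, 2 and 9, or 3 and 10 without siAHR-2 replicate 1, 2 or 3, and 8 and 13 without siAHR-5 replicate 2.

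The kinase genes Plk1, Aurka and Cdk1 passed the test with neither siRNA. Plk1 was at 14.41, 14.42 and 14.47 with siAHR-2 and 14.53, 14.60 and 14.52 with siAHR-5 (log2FC −0.07 and 0.05, 95% confidence intervals −0.13 to −0.02 and −0.03 to 0.12). For Aurka the values were 13.24, 13.16 and 13.17 with siAHR-2 and 13.20, 13.30 and 13.23 with siAHR-5 (log2FC −0.05 and 0.01). Cdk1 was at 15.00, 15.00 and 14.97 with siAHR-2 and 14.89, 14.90 and 14.83 with siAHR-5 (log2FC 0.08 and −0.04). Ccnb1 rose with siAHR-2, to 14.75, 14.78 and 14.82 (log2FC 0.11, limma adjusted p = 0.0139), and was at 14.72, 14.65 and 14.69 with siAHR-5 (log2FC 0.01). Mad2l1 was at 13.57, 13.52 and 13.56 with siAHR-2 and 13.69, 13.52 and 13.61 with siAHR-5, which overlapped the siCtrl libraries. Bub1b was at 14.27, 14.31 and 14.30 with siAHR-2 and fell with siAHR-5 to 14.23, 14.17 and 14.28 (log2FC −0.07 and −0.14, limma adjusted p = 0.0823 and 0.0294). Kif20a fell with both, to 14.99, 14.97 and 14.99 with siAHR-2 and 14.97, 14.95 and 14.95 with siAHR-5 (log2FC −0.09 and −0.11, limma adjusted p = 0.0140 and 0.00719).

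Of the passenger and marker genes, Aurkb was at 14.67, 14.66 and 14.66 with siAHR-2 and 14.56, 14.55 and 14.51 with siAHR-5 (log2FC 0.04 and −0.09, limma adjusted p = 0.209 and 0.0534). Birc5 stood at 13.51, 13.50 and 13.55 with siAHR-2 and 13.52, 13.60 and 13.51 with siAHR-5 (log2FC 0.04 and 0.06), and Tpx2 at 14.95, 14.96 and 14.98 with siAHR-2 and 14.95, 14.91 and 14.93 with siAHR-5 (log2FC −0.04 and −0.08). Mki67 was at 16.75, 16.80 and 16.80 with siAHR-2 and 16.81, 16.68 and 16.86 with siAHR-5 (log2FC 0.11 and 0.11, 95% confidence intervals 0.02 to 0.20 and −0.03 to 0.25). None of these 4 genes passed the test with either siRNA. Ect2, which rose with MYC in both sets, was at 15.53, 15.52 and 15.49 with siAHR-2 and 15.54, 15.38 and 15.52 with siAHR-5 (log2FC 0.09 and 0.05, limma adjusted p = 0.0799 and 0.479). Incenp had a log2FC of 0.05 (limma adjusted p = 0.302) with siAHR-2 and rose by 0.10 with siAHR-5 (limma adjusted p = 0.0225). Espl1 rose by 0.19 with siAHR-2, to 15.35, 15.35 and 15.35 (limma adjusted p = 0.00310), and was at 15.21, 15.27 and 15.23 with siAHR-5 (log2FC 0.08, limma adjusted p = 0.0658).

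By role, 3 of the 5 kinetochore genes rose and 1 fell with siAHR-2, where 0 changed with siAHR-5 (limma, with 1 of the 5 at an unadjusted p under 0.05), when 29.3% and 39.2% of all genes changed. The subunit gene Spc25 had a log2FC of 0.21 and 0.10, Nuf2 of 0.13 and −0.07, and Cenpf of 0.15 and −0.02. Tested directly against siAHR-2, siAHR-5 was lower for Nuf2 (−0.20), Ndc80 (−0.18) and Cenpf (−0.16) and higher for Cenpa (0.30). The limma adjusted p was 0.00330, 0.0112, 0.0269 and 0.0436. Spc25 did not pass this test (−0.11, limma adjusted p = 0.0529). All 4 anaphase genes were lower with siAHR-5 than with siAHR-2 in the direct test, where 17% of all genes were, by 0.25 for Pttg1, 0.21 for Cdc20, 0.11 for Ube2c and 0.11 for Espl1 (limma adjusted p = 9.24e-04, 0.00204, 0.0403 and 0.00670). The phosphatase gene Cdc25b rose by 0.17 and 0.17 with the siRNAs (limma adjusted p = 0.00961 and 0.00482), and the checkpoint kinase genes Bub1 and Ttk moved apart. Bub1 rose by 0.10 and 0.16 (limma adjusted p = 0.0207 and 0.0455), whereas Ttk fell by 0.08 and 0.13 (limma adjusted p = 0.0183 and 0.0446).

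In the wider lists, 1 of the 106 genes passed both cutoffs with siAHR-2 and 2 with siAHR-5, all higher. That is 0.943% and 1.89% of the lists, when 0.47% and 2.32% of all genes passed. With only 1 and 2 genes, no difference from all genes is read from these shares. Pkmyt1, which encodes the MYT1 kinase that holds CDK1 inactive, rose by 0.60 with siAHR-2 (SE 0.0291, limma adjusted p = 4.28e-04) and by 0.66 with siAHR-5 (SE 0.0529, limma adjusted p = 6.90e-04). Its siAHR-2 call did not hold under 4 alternatives, which left 0 of the 106 genes past both cutoffs. The log2FC was 0.57 after median centring, 0.581 without myc-/- + MYC siAHR-2 replicate 1 and 0.584 without myc-/- + MYC siCtrl replicate 2, each within the fold cutoff, and the limma adjusted p was 0.0126 with the replicate block. Zw10, a kinetochore gene, fell by 0.57 with siAHR-5 (limma adjusted p = 6.97e-04), just within the fold cutoff, and was past it after median centring (−0.63) and without myc-/- + MYC siAHR-5 replicate 3 (−0.60) or myc-/- + MYC siCtrl replicate 1 (−0.59). Cdkn1a rose by 1.07 with siAHR-5 (SE 0.0482, limma adjusted p = 2.26e-04) and stood at a log2FC of 0.04 with siAHR-2 (limma adjusted p = 0.512). These 3 genes were named after their values were seen, as those of the lists past the cutoffs in 1 or more settings.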

How the data were processed

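RNA was sequenced by the authors from 18 libraries in 6 groups of 3, grouped by their GEO titles, and each value column was assigned to its library by name. Value columns without a sample numbered 0. Reads were aligned to rn6 with HISAT2 2.1.0, genes with fewer than 10 total reads were removed and the rest normalized with DESeq2 by the authors. The read counter and annotation are not given in the sources used here. The authors deposited normalized log2 values for 13188 genes, whose transformation is not named; taken off the log scale they sum to a different total in each library, so they are not CPM. Depth and the precision it gives are unknown.

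Fits used limma 3.58.1 in R 4.3.3 (lmFit, eBayes with trend) on the libraries of the groups compared, with Benjamini-Hochberg adjustment over all genes. The groups to compare were limited to those within a set. The cutoffs were a fold of 1.5 (taken on the log2 scale) and an adjusted p of 0.01, with an FDR below 5% beside them. The genes and lists were chosen with earlier results of these data known. All 40 genes could be named. By rule, values per library were given for 17 genes chosen by role and the 3 largest rises and falls per comparison. Outside that rule they were also given for Nuf2, Ttk, Prc1, Kif22, Racgap1 and Cenpf. From the wider lists, the 2 largest rises and falls past the cutoffs with MYC were named. As alternatives, the fold cutoff was dropped, the 18 libraries were fitted together, the trend was left out, values were quantile normalized or median centred, genes with a mean log2 under 5 were removed, a pseudocount of 1 was added, replicate number was a block, and each library was left out in turn. Plots came from matplotlib 3.10.9 (Python 3.11.15).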

Additional observations from a re-analysis of the deposited data

Results flagged for a closer look

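The effect of MYC on 8 of the 40 mitotic genes differed between the sets past both cutoffs in the test of the difference itself (12-library minus 6-library set, limma over 12 libraries): Espl1 by 1.13, Nuf2 by 0.88, Ttk by 0.84, Top2a by 0.83, Kif11 by 0.79, Prc1 by 0.65, Ndc80 by 0.64 and Mad2l1 by 0.62. Relative to its control, each had the larger MYC value in the 12-library set. Past both cutoffs, 6.79% of all genes differed in this direction. The 4 groups of this test also differ in their transfection label and in the scale of their set, and the part of either was not tested.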

How the results depend on the processing

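Counts past both cutoffs stayed within 1.5 times with all libraries in one fit, no trend, genes with a mean of at least 5 or a pseudocount of 1. At an FDR of 5% without the fold cutoff there were 7 higher and 28 lower genes in the 6-library set, 19 and 11 for the 12-library set, 15 and 4 with siAHR-2, 8 and 5 with siAHR-5, 5 and 15 between the siRNAs, and 29 and 2 for the difference between the sets. The cause of the changes below was not tested.

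After quantile normalization, 3 genes were lower past both cutoffs and 12 higher at an FDR of 5% in the 6-library set, with a median log2FC of −0.167, and 0 were lower past both cutoffs and 5 lower at an FDR of 5% in the 12-library set, with a median of 0.175. For siAHR-2 it gave 23 higher and 2 lower genes and a median of 0.125, for siAHR-5 2 lower, and for the difference between the sets 1 lower. It turned the sign for Cdk1 (0.0933), Ccnb1 (0.00535), Top2a (0.172) and Anapc11 (0.0177) in the 6-library set, and for Ccnb1 (0.114), Kif22 (0.0148) and Tpx2 (0.157) in the 12-library set. Aurka (−0.565), Foxm1 (−0.531), Kif11 (−0.543) and Kif22 (−0.47) of the 6-library set and Plk1 (−0.444) of the 12-library set no longer passed the fold cutoff.

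After median centring, 0 genes were higher and 9 lower past both cutoffs in the 6-library set (median −0.295, Ect2 0.545). In the 12-library set 0 were lower (median 0.144, Plk1 −0.558). The median was 0.0405 for siAHR-2 and −0.0188 for siAHR-5, the opposite sign, with 5 higher and 12 lower genes at an FDR of 5%. The difference between the sets had 16 genes higher past both cutoffs, 0 lower at an FDR of 5% and a median of 0.426. Over all genes, the higher share of those past both cutoffs went from 33.9% to 22.1% for siAHR-2, from 63.4% to 45.9% for siAHR-5 (50.2% after quantile normalization) and from 41.3% to 52.6% for the difference.

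The deviations of samples of equal number correlated by a mean of −0.0287 to 0.0974 per comparison. Single correlations in the 12-library MYC comparison ran from −0.256 to 0.242. With 3 libraries per group, whether these samples share more than a number cannot be told from this. With number as a replicate block, siAHR-2 had 10 higher and 1 lower gene, the difference between the sets had 0 lower at an FDR of 5%, and 0 of all 13188 genes passed both cutoffs with siAHR-2, compared with 62 without the block. Leaving out each library in turn gave 0 to 1 genes higher and 6 to 9 lower past both cutoffs in the 6-library set, and 0 to 1 lower in the 12-library set. At an FDR of 5% it gave 9 to 16 higher and 1 to 4 lower with siAHR-2, 5 to 11 and 2 to 6 with siAHR-5, 2 to 8 and 9 to 14 between the siRNAs, and 0 to 2 lower for the difference. Ect2 of the 6-library set was 0.58 without myc-/- siCtrl replicate 2 or myc-/- + MYC replicate 3, Foxm1 was −0.573 and −0.574 without replicate 2 of either group, and Plk1 of the 12-library set was −0.58 without myc-/- replicate 2, each within the fold cutoff. Depth is unknown, so what it limits could not be given.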
